A study of Mus musculus with 6 samples.

Results

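The tumour suppressor p53 is a transcription factor that is stabilised by DNA damage and other stress, and the genes examined here are transcribed under its control. They are 10 genes chosen by name: Plk2, Sesn1, Sesn2, Trp53inp1, Mdm2, Ccng1, Bax, Gadd45a, Pmaip1 and Phlda3. Each was read from the probe set that the array's annotation pairs with that gene alone. Of the 10 genes, 9 were measured in this way, each by 1 probe set, among 19937 measured genes in all. Bax, which permeabilises the mitochondrial outer membrane in apoptosis, was not analysed here. No filter on low values was applied, so all 9 measured genes entered every test that used the whole table.

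The 6 arrays came from proliferating neural stem cells and progenitors of adult mice, 3 from NestinCre;Sirt1lox/lox mice (Sirt1 inactive) and 3 from Sirt1lox/lox mice (control), all of strain 129SV and 8 weeks old. Both groups carry floxed Sirt1 alleles, and only the Sirt1 inactive group carries Cre, driven by the Nestin promoter of neural stem and progenitor cells, so that loss of SIRT1 and presence of Cre cannot be told apart. Cells had been grown as neurospheres with EGF and bFGF, plated on coated dishes and collected at passage 2. The labels call the samples of a group biological replicates and do not say how many mice each came from.

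p53 is held at a low level by MDM2, a ubiquitin ligase whose own gene p53 activates, and its output covers cell cycle arrest, apoptosis, DNA repair and the handling of oxidative stress. SIRT1, an NAD-dependent deacetylase, removes acetyl groups from p53, and acetylation is known to raise the transcriptional activity of p53. In neural stem cells p53 is known to restrain self-renewal. The comparison of the genotypes asks whether transcripts of p53 targets differ in cells without active SIRT1.

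p53 binds DNA at pairs of a decamer that is its own reverse complement, with a short spacer between the copies. Single decamers, known by name as the p53 half-element, were searched on both strands in RefSeq promoter windows of build GRCm38.p6, which run from 250 bases before to 50 bases after a gene's start. Of the 10 genes, 8 had a window, and Sesn1 had 2 for its alternative starts; Trp53inp1 and Pmaip1 were not matched. A decamer stood in 5 of the 9 windows, those of Bax, Ccng1, Gadd45a, Mdm2 and the second start of Sesn1, against 8.36% of all 32851 windows. The pair of decamers with a spacer of up to 13 bases stood in 0 of the 9 windows and in 0.0731% of all windows. The windows of Plk2, Sesn2 and Phlda3 held no decamer. The stretches of the measured genes are shown because they are the places in these windows where the letters of a p53 contact occur, with the decamer in capitals and 10 flanking bases on either side. A match is a description of letters and not a site of binding, and the p53 sites of Mdm2 and of human GADD45A that are known from other work lie in introns. The decamer began 173 bases before the second start of Sesn1, 186 before that of Mdm2, 185 before that of Ccng1 and 40 before that of Gadd45a.
Sesn1 (chr10:41887256-41887285, plus strand): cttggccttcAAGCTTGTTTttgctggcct
Mdm2 (chr10:117710925-117710954, minus strand): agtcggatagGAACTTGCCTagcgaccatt
Ccng1 (chr11:40755452-40755481, minus strand): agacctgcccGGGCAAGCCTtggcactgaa
Gadd45a (chr6:67037428-67037457, minus strand): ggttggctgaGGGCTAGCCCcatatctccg

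Values are the authors' log2 RMA values, 1 per probe set and array, and 1 unit is a doubling of signal. RMA gives all arrays nearly the same distribution and compresses changes of dim probe sets. A level is compared only between arrays within a gene. The array medians lay between 7.36 and 7.39, and control replicate 3 stood apart: its probe sets lay a median of 0.117 from the mean of the remaining arrays, against 0.0591 to 0.0890 for the other 5. Sirt1 itself read 8.26, 8.33 and 8.25 in Sirt1 inactive cultures, against 8.73, 8.78 and 8.55 in control cultures. Its groups did not overlap, and its difference of -0.41 (SE 0.08) did not pass over all probe sets (limma, adjusted p = 0.959). The labels do not name the floxed part of the gene, so this probe set need not report the deletion. Markers of the labelled cell type were present on every array, with Nes, the intermediate filament nestin, between 11.55 and 11.70 and Sox2, a stem cell transcription factor, between 11.60 and 11.78.

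None of the 9 measured p53 targets passed the test at an adjusted p of 0.05 (limma, Benjamini-Hochberg over 22961 probe sets), and 0% of all tested probe sets passed. With an unadjusted p under 0.05 there were 0 of the 9 targets, against 3.61% of all probe sets. Of the 9 differences, 5 were below 0 and 4 above it, against 60.1% below 0 for all probe sets. That share depends on brightness, and 51.4% of probe sets at or above the median brightness were below 0. The median of the 9 differences was -0.06, and that of all measured genes was -0.02. The groups did not overlap for 1 of the 9, Trp53inp1, which was lower, as were 6.71% of all probe sets without overlap. The 4 genes with the largest differences, Plk2, Sesn2, Sesn1 and Trp53inp1, were below control on average. Of the 9 genes, 4 had the lower value in the Sirt1 inactive culture of 3 of 3 same-numbered pairs, against 20.7% of all probe sets, and they were these same genes. In extracts of whole cultures, fewer cells of a type and less RNA per cell cannot be told apart.

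**Figure D1:**
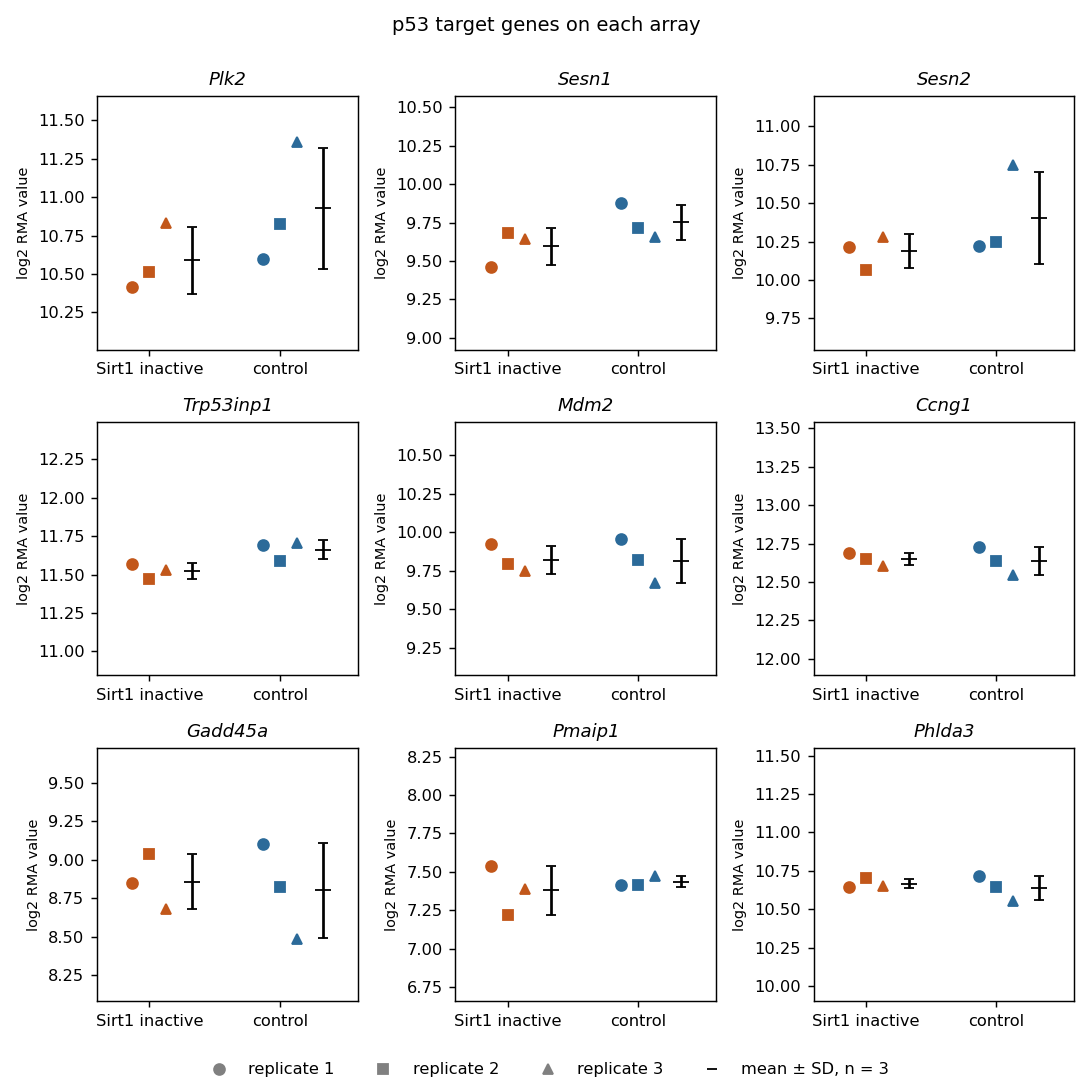
Log2 RMA values of the 9 measured p53 targets on each array, with Sirt1 inactive cultures on the left and control cultures on the right of each panel. Symbols mark the replicate number, black bars are the mean ± SD (n = 3), and every panel spans the same number of log2 units. Control replicate 3 is the highest point for Plk2 (11.36) and Sesn2 (10.75) and the lowest for Gadd45a (8.48), and only Trp53inp1 has groups that do not overlap.

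Mdm2, the ligase that closes the feedback loop on p53, was at nearly the same level in both genotypes. It read 9.92, 9.79 and 9.75 in Sirt1 inactive cultures, against 9.95, 9.82 and 9.67 in control cultures. The highest and the lowest of the 6 values were both from control cultures, and the groups overlapped throughout. The difference was 0.01 (SE 0.09, 95% interval -0.20 to 0.22; limma, adjusted p = 0.995), so the interval spans levels of 0.869 to 1.16 times control. Its paralog Mdm4, which binds p53 and inhibits it, differed by -0.002 (SE 0.10).

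Ccng1, the gene of cyclin G1, which recruits a phosphatase to MDM2, was also at nearly the same level in both genotypes. It read 12.69, 12.65 and 12.61 in Sirt1 inactive cultures, against 12.72, 12.63 and 12.54 in control cultures. The Sirt1 inactive values lay inside the range of the control values. The difference was 0.02 (SE 0.07, 95% interval -0.14 to 0.17; limma, adjusted p = 0.987). Phlda3, which competes with AKT for membrane lipids and so restrains AKT, read 10.65, 10.70 and 10.65 in Sirt1 inactive cultures, against 10.71, 10.64 and 10.56 in control cultures. Here too the control values spanned the Sirt1 inactive ones, and the difference was 0.03 (SE 0.06, 95% interval -0.12 to 0.18; limma, adjusted p = 0.971).

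Gadd45a, a stress sensor that slows the G2/M transition and takes part in DNA demethylation, varied more between cultures than between genotypes. It read 8.85, 9.04 and 8.68 in Sirt1 inactive cultures, against 9.10, 8.82 and 8.48 in control cultures. The control values spanned 0.62 units and enclosed the Sirt1 inactive values. The difference was 0.05 (SE 0.16, 95% interval -0.33 to 0.44; limma, adjusted p = 0.979), and it was -0.11 without control replicate 3. Its paralogs Gadd45g and Gadd45b differed by 0.38 (SE 0.18) and 0.14 (SE 0.08). Gadd45g read 9.57, 9.64 and 9.51 in Sirt1 inactive cultures, against 9.37, 9.46 and 8.74 in control cultures. These groups did not overlap, the difference was 0.16 without control replicate 3, and it did not pass (limma, adjusted p = 0.959).

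Plk2, a polo-like kinase that acts in centriole duplication and, in neurons, in the weakening of synapses, had the largest difference of the 9 genes. It read 10.42, 10.52 and 10.83 in Sirt1 inactive cultures, against 10.60, 10.82 and 11.36 in control cultures. The groups overlapped, and control replicate 3 was the highest array by far. The difference was -0.34 (SE 0.20, 95% interval -0.81 to 0.13), or 0.792 times control, and did not pass (limma, adjusted p = 0.959; exact two-sided permutation p = 0.3, where 0.1 is the smallest possible). Within the same-numbered pairs the differences were -0.18, -0.31 and -0.52, and with the replicate number as a block the interval was -0.54 to -0.13 (unadjusted p = 0.00752 in limma, adjusted p = 0.656). When control replicate 3 alone was left out the unblocked difference was -0.12 (SE 0.14), and without both arrays of number 3 and with the block it was -0.24 (limma, unadjusted p = 0.013, adjusted p = 0.401).

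List means of markers of other cell types differed between the groups or on single arrays. All 7 neuroblast and neuron markers were below control, with list means of 7.68 to 7.94 in Sirt1 inactive cultures, against 8.06 to 8.22 in control cultures. None passed over all probe sets (limma), and 3 of the 7 had an unadjusted p under 0.05 in limma, against 3.61% of all probe sets. Control replicate 3 was 0.25 above the mean of the arrays for these markers and 0.60 above it for Plk2. Of the 7 markers, 6 were highest on that array, while Stmn2 was lowest there, at 6.94, against 7.07 to 8.64 on the other arrays. Oligodendrocyte progenitor markers had list means of 9.68 to 9.89 in Sirt1 inactive cultures, against 9.41 to 9.53 in control cultures, with 4 of 7 above 0. These 4, Pdgfra (0.79), Gpr17 (0.75), C1ql1 (0.44) and Sox10 (0.28), each had an unadjusted p under 0.05 in limma, against 3.61% of all probe sets. Olig2 (-0.15), Cspg4 (-0.12) and Olig1 (-0.07) were below 0. Microglia and macrophage markers had means of 6.83 to 6.86 in Sirt1 inactive cultures, against 6.90 to 7.002 in control cultures, with 7 of 7 below 0, and 5 of 7 without control replicate 3. These microglia means lay below every array median, as did all values of the neuron markers Tubb3 and Rbfox3. RMA values alone do not show whether such signals exceed background. The list mean of astrocyte markers set control replicate 3 apart in the other direction, at 0.57 below the mean of the arrays. Astrocyte list means ran from 9.88 to 9.96 in Sirt1 inactive cultures, against 9.21 to 9.94 in control cultures, with 5 of 7 above 0. Gfap, the astrocyte intermediate filament, read 10.12, 10.25 and 9.65 in Sirt1 inactive cultures, against 9.55, 9.87 and 7.41 in control cultures. Aqp4, a water channel of astrocytes, read 8.42 on control replicate 3, against 10.05 to 10.57 on the other 5 arrays. Gfap and Aqp4 lay further below their own means on that array than the other astrocyte markers. Of the 7 markers, 4 were lowest there, while Gjb6 was highest there (5.92). Slc1a2 read 10.19 there, inside its range on the other arrays. Myelinating oligodendrocyte markers had means of 9.25 to 9.49 in Sirt1 inactive cultures, against 9.33 to 9.58 in control cultures, with 5 of 5 below 0. None of these markers passed either (limma). Of all probe sets 60.1% were below 0 over the 6 arrays, and 53.7% without control replicate 3. The part of these cell types in the values of Plk2 or of the other p53 targets was not tested.

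The sestrins SESN1 and SESN2 inhibit mTORC1 in response to stress and to lack of leucine, and both genes were below control on average. Sesn2 read 10.22, 10.07 and 10.28 in Sirt1 inactive cultures, against 10.22, 10.24 and 10.75 in control cultures. Only control replicate 3 stood clear of the Sirt1 inactive values. The difference was -0.22 (SE 0.15, 95% interval -0.56 to 0.13; limma, adjusted p = 0.959), and it was -0.04 (SE 0.08) without control replicate 3. Sesn1 read 9.46, 9.68 and 9.64 in Sirt1 inactive cultures, against 9.88, 9.72 and 9.66 in control cultures. The groups overlapped by a small margin, with Sirt1 inactive replicate 2 just above control replicate 3. The difference was -0.16 (SE 0.09, 95% interval -0.36 to 0.05; limma, adjusted p = 0.959), and it was -0.20 (SE 0.09) without control replicate 3. Most of it came from pair 1, where the difference was -0.42, against -0.03 in pair 2 and -0.02 in pair 3. The third sestrin gene, Sesn3, differed by -0.08 (SE 0.06; limma, adjusted p = 0.959).

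Trp53inp1, whose product is a cofactor of p53 in apoptosis and takes part in autophagy, had the smallest unadjusted p of the 9 genes. It read 11.57, 11.47 and 11.53 in Sirt1 inactive cultures, against 11.69, 11.59 and 11.71 in control cultures. All Sirt1 inactive values lay below all control values, with 11.57 and 11.59 as the nearest. The difference was -0.14 (SE 0.06, 95% interval -0.29 to 0.01), or 0.909 times control (limma, unadjusted p = 0.065, adjusted p = 0.959; exact two-sided permutation p = 0.1). The pairs differed by -0.12, -0.12 and -0.18, and with the block the unadjusted p in limma was 0.0487 (adjusted p = 0.656). It was -0.11 (SE 0.07) without control replicate 3. Its paralog Trp53inp2, an autophagy gene, differed by -0.01 (SE 0.06).

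Pmaip1, which encodes the BH3-only protein NOXA, had a signal close to the array medians. It read 7.54, 7.22 and 7.39 in Sirt1 inactive cultures, against 7.42, 7.42 and 7.48 in control cultures. The Sirt1 inactive cultures held both the highest and the lowest value. The difference was -0.06 (SE 0.09, 95% interval -0.26 to 0.15; limma, adjusted p = 0.962). RMA values alone do not show whether a signal of this size exceeds background. Bak1, which acts at the mitochondrial membrane as Bax does, differed by -0.15 (SE 0.09), and Bbc3, the gene of the BH3-only protein PUMA, by -0.02 (SE 0.06), and neither passed.

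**Figure D2:**
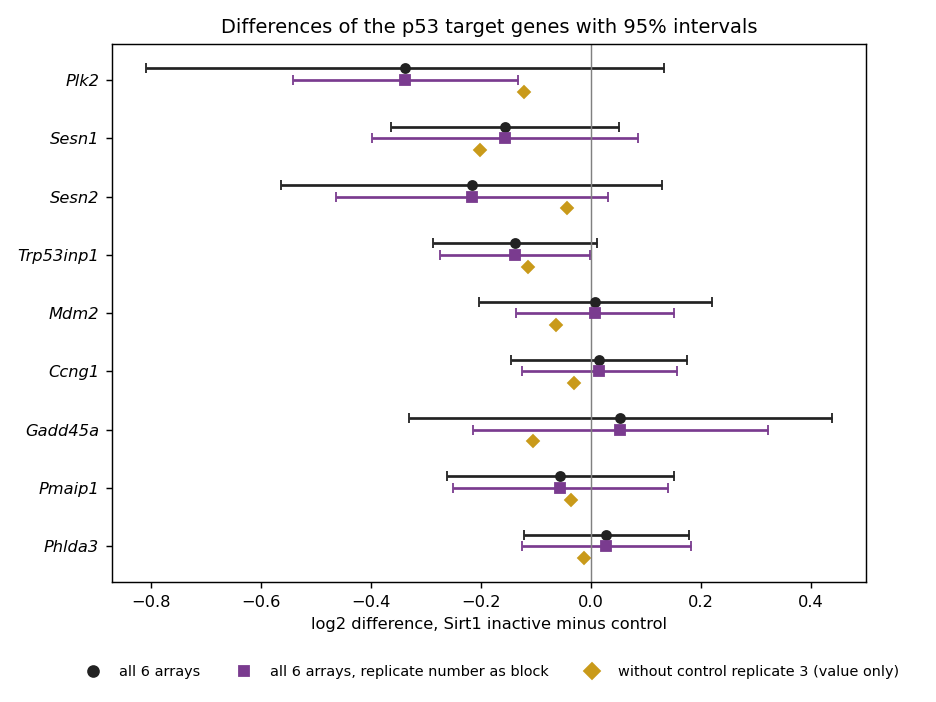
Log2 differences of the 9 measured p53 targets, Sirt1 inactive minus control, with 95% intervals from limma over all 6 arrays (black) and with the replicate number as a block (purple). Yellow diamonds give the difference without control replicate 3. Without the block every interval includes 0. With it those of Plk2 (-0.54 to -0.13) and Trp53inp1 (-0.27 to -0.0011) lie below 0, and all 9 diamonds lie below 0.

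With the replicate number as a block, 2 of the 9 targets had an unadjusted p under 0.05 in limma, Plk2 and Trp53inp1, both lower, against 5.08% of all probe sets that were lower at this p, and 0 of the 9 had an adjusted p under 0.05. When control replicate 3 was left out of the unblocked fit, all 9 differences were below 0, against 53.7% of all probe sets. Their sizes then ran from -0.01 for Phlda3 to -0.20 for Sesn1, and 0 of the 9 had an unadjusted p under 0.05.

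The 9 genes did not share a profile over the arrays. Mdm2, Ccng1, Gadd45a and Phlda3 were each highest on control replicate 1 and lowest on control replicate 3. Plk2, Sesn2 and Trp53inp1 were highest on control replicate 3, and Sesn1 was highest on control replicate 1. Pmaip1 was highest on Sirt1 inactive replicate 1. In all, the highest value of 8 of the 9 genes was from a control culture, 5 on control replicate 1 and 3 on control replicate 3. The lowest value was on control replicate 3 for 4 of the 9, on Sirt1 inactive replicate 2 for 3 and on Sirt1 inactive replicate 1 for 2. Shares of all probe sets with such extremes were not counted.

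Sesn2, Pmaip1 and Gadd45a are also known targets of ATF4, the transcription factor of the amino acid and unfolded protein responses. Of the 13 other ATF4 targets, 9 were highest on control replicate 3, and the mean of the 13 lay 0.25 above the mean of the arrays there. The share of all probe sets that were highest on that array, the one furthest from the others, was not counted. Slc7a11 was lowest there, with a deviation of -0.33, and Atf3 deviated by -0.01. Chac1, which degrades glutathione, read 8.98, 9.04 and 9.39 in Sirt1 inactive cultures, against 8.79, 9.04 and 10.44 in control cultures. Vldlr, a lipoprotein receptor gene, deviated by 0.57 on control replicate 3, Atf5 by 0.42 and Ddit3, the gene of CHOP, by 0.36, beside 0.45 for Sesn2 and 0.60 for Plk2, which is not in that list. Gadd45a deviated by -0.35 on the same array and Pmaip1 by 0.07. The part of ATF4 targets in the differences of Sesn2 and Plk2 was not tested. Of all 16 genes in the ATF4 list, 0 passed in either direction (limma) and 13 were below 0, against 60.1% of all probe sets, with a median difference of -0.07. Without control replicate 3, 9 of the 16 were below 0, against 53.7% of all probe sets. Slc7a11, the cystine transporter gene, at 0.27, Ddit3 at -0.17, Atf5 at -0.18 and Cebpb at -0.06 had the smallest unadjusted p among those that are not p53 targets here.

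**Figure D3:**
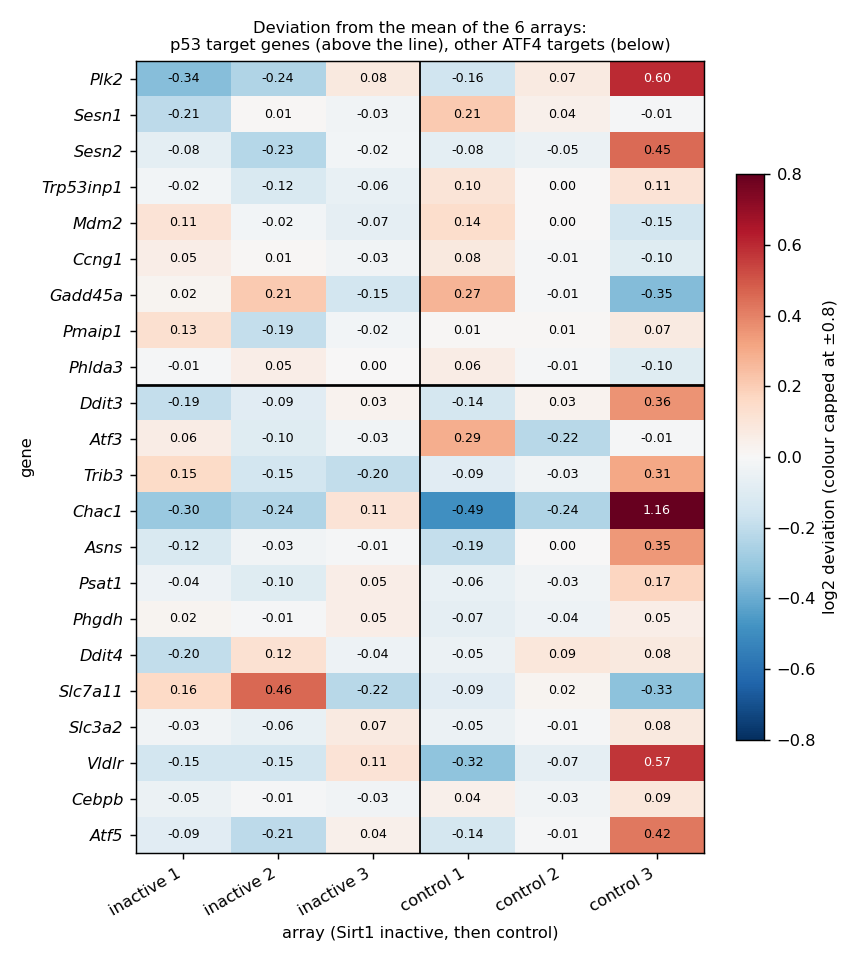
Deviation of each gene from its mean over the 6 arrays, in log2 units, for the 9 measured p53 targets (above the line) and 13 other ATF4 targets (below it). Columns are the Sirt1 inactive cultures and then the control cultures, and colour is capped as the bar shows. Control replicate 3 holds the largest positive deviations of Plk2 (0.60), Sesn2 (0.45) and Chac1 (1.16).

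Sesn1 and Gadd45a are also known targets of FOXO factors, which SIRT1 deacetylates as well. Of the 16 genes in the FOXO list, 0 passed in either direction (limma), and the median difference was -0.02. In this list 10 were below 0 and 6 above, against 60.1% of all probe sets below 0. Without control replicate 3, 14 were below 0 and 2 above, against 53.7% of all probe sets below 0. The members other than Sesn1 and Gadd45a with the smallest unadjusted p were Cat, the gene of catalase, at -0.17, Sesn3 at -0.08, Ccng2, a cyclin G1 paralog of quiescent cells, at -0.16 and Pdk4, a brake on pyruvate oxidation, at 0.22 (-0.03 without control replicate 3). The mean of the 14 FOXO targets that are not among the 9 genes ran from 9.46 to 9.48 in Sirt1 inactive cultures, inside the range of 9.33 to 9.62 in control cultures.

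Genes that act on p53 showed no call. Trp53 was not analysed here, since no probe set paired with it alone was in the table used. Of 21 measured regulators 0 passed in either direction (limma), with a median of -0.01. Of these 8 were above 0 and 13 below, against 60.1% of all probe sets below 0. Chek2 and Atr, kinases of the DNA damage response that lead to phosphorylation of p53, differed by 0.13 (SE 0.06) and 0.22 (SE 0.13), Setd7, a methyltransferase that acts on p53, by -0.15 (SE 0.09), and Crebbp, an acetyltransferase of p53, by -0.09 (SE 0.05). Atr read 8.21, 8.53 and 8.41 in Sirt1 inactive cultures, against 7.98, 8.39 and 8.12 in control cultures. The groups overlapped, the value was higher in the Sirt1 inactive culture of each pair, and with the block the unadjusted p in limma was 0.0114 (adjusted p = 0.656). The p53 relatives Trp63 and Trp73 each differed by -0.10 (SE 0.06).

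Genes listed as other p53 targets showed no call either. The lists were compiled by name, and whether p53 controls each gene in these cells was not tested. They do not separate genes that p53 raises from genes that it lowers. In 4 lists, 48 of 55 genes were measured, and 0 passed in either direction (limma). Of the 48, 25 were above 0 and 23 below, with a median of 0.01. Below 0 were 60.1% of all probe sets and 51.4% of those at or above the median brightness. Without control replicate 3, 18 of the 48 were above 0 and 30 below, against 53.7% of all probe sets below 0. Cdkn1a, the inhibitor p21, was not analysed here because its probe set is paired with a further gene. Of the 11 measured genes of cell cycle arrest, 5 were above 0 and 6 below, with Rprm, a mediator of G2 arrest, at 0.12, the spindle gene Psrc1 at -0.06, the antiproliferative gene Btg2 at 0.12 and Sfn, the gene of stratifin, at -0.05. Of the 16 genes of cell death, 6 were above 0 and 10 below, with Trp53i11 at -0.20, Aen, a nuclease of apoptosis, at -0.07, Siva1 at -0.06 and Tnfrsf10b, the TRAIL receptor, at 0.16, which was -0.07 without control replicate 3. Trp53i11 read 12.75, 12.69 and 12.85 in Sirt1 inactive cultures, against 12.85, 12.90 and 13.14 in control cultures. Its groups did not overlap, although the nearest values are equal as rounded here, and the difference was -0.11 without control replicate 3. With the block its unadjusted p in limma was 0.0227 (adjusted p = 0.656).

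Of the 13 measured genes of DNA repair and metabolism, 7 were above 0 and 6 below, and 3 were above and 10 below without control replicate 3. The smallest unadjusted p were those of Tnfaip8 at 0.43, Tigar, which lowers glycolytic flux, at 0.11, Sesn3 at -0.08 and Triap1, an inhibitor of apoptosis, at 0.08. Sesn3 was also counted in the FOXO list and among the paralogs, and Trp53inp2, in this list too, was also counted as a paralog. Tnfaip8, a regulator of cell survival, was the only gene of the 48 with an unadjusted p under 0.05 without the block (0.017 in limma, adjusted p = 0.959). Of all probe sets 3.61% had such a p in either direction. With the block 2 of the 48 were under 0.05, Tnfaip8 (0.0104 in limma, higher) and Trp53i11 (lower), against 7.58% of all probe sets in either direction. Tnfaip8 read 8.15, 8.34 and 8.22 in Sirt1 inactive cultures, against 7.96, 7.98 and 7.48 in control cultures. The groups did not overlap, and the difference was 0.27 without control replicate 3. Of the 8 measured genes of secreted and surface proteins, 7 were above 0 and 1 below, but 4 were above and 4 below without control replicate 3. The smallest unadjusted p were those of the ephrin receptor gene Epha2 at 0.16, the stem cell factor gene Kitl at 0.15, Igfbp3, which binds insulin-like growth factors, at 0.10 and the thrombospondin gene Thbs1 at 0.40. Without control replicate 3, Igfbp3 was -0.0008 and Thbs1 -0.07. On that array the mean of these 8 genes lay 0.37 below the mean of all arrays, and mural cell and fibroblast markers lay 0.66 below it. The part of those markers in the values of the secreted and surface genes was not tested.

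**Figure D4:**
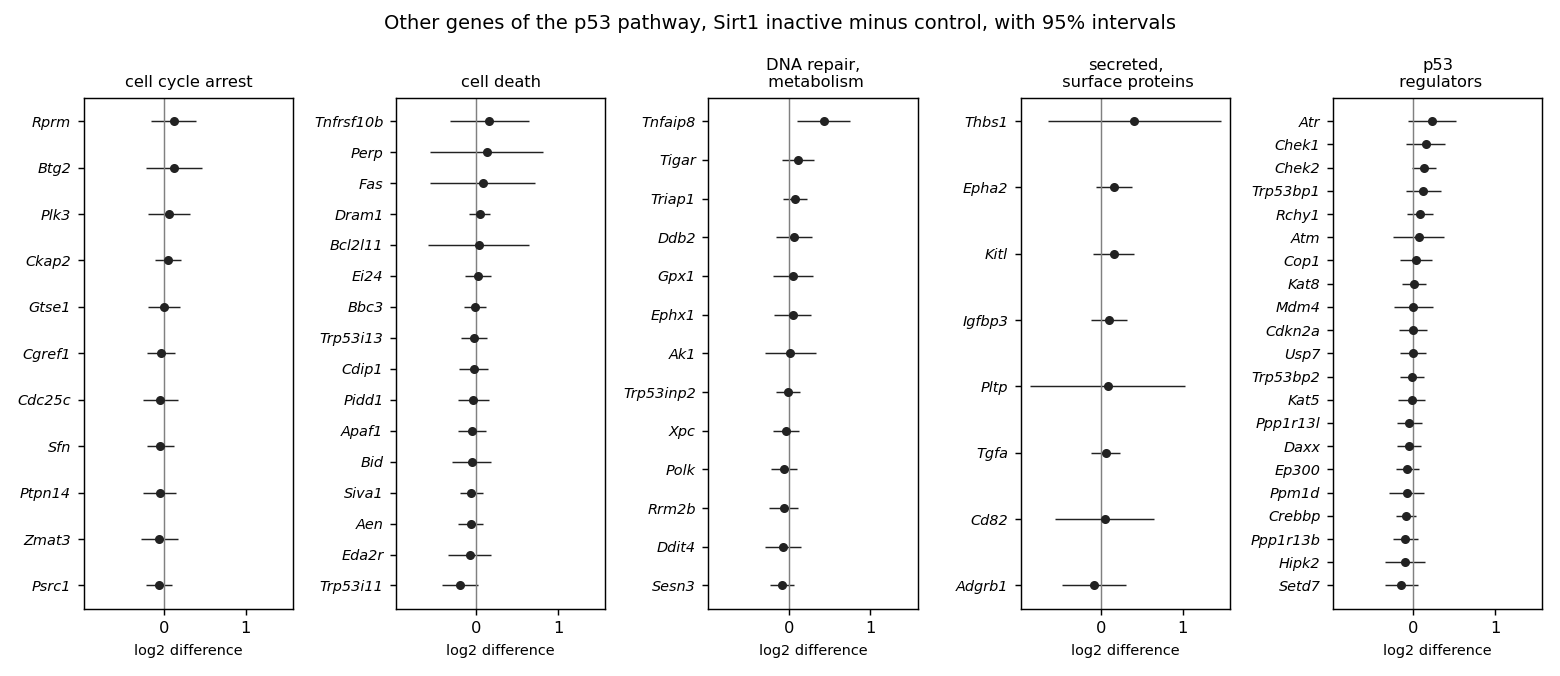
Log2 differences, Sirt1 inactive minus control, with 95% intervals from limma. They are shown for 48 genes in 4 lists of other p53 targets and for 21 regulators of p53, each panel ordered by the difference. Tnfaip8 (0.43) is the only other target whose interval lies clear of 0, and Thbs1 and Pltp have the widest intervals.

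The remaining paralogs did not pass. Plk1, Plk3 and Plk4, polo-like kinases of mitosis, stress and centriole duplication, differed by 0.02 (SE 0.06), 0.06 (SE 0.11) and 0.08 (SE 0.11), against -0.34 for Plk2. Phlda1 and Phlda2 differed by -0.13 (SE 0.14) and -0.003 (SE 0.06), and Phlda1 was -0.006 without control replicate 3. Of the 12 paralogs measured, which include Bak1 as the paralog of Bax, 0 passed in either direction (limma). Of these 12, 5 were above 0 and 7 below, against 60.1% of all probe sets below 0. Outside the 9 genes, the lists of regulators, p53 relatives, paralogs, FOXO targets and ATF4 targets held 59 measured genes. Of these 59, 0 had an unadjusted p under 0.05 in limma without the block, against 3.61% of all probe sets in either direction. With the block 3 of the 59 did, all higher, against 7.58% of all probe sets in either direction. They were Atr, Slc7a11 (unadjusted p = 0.0177) and Gadd45g (unadjusted p = 0.0287), and none passed in limma (adjusted p = 0.656 for each).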

How the data were processed

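Biotin-labelled cDNA of total RNA from 6 cultures was hybridised to Affymetrix whole-transcript arrays. The values deposited by the authors are on the log2 scale, as their range shows, and were background-adjusted and normalized with RMA per the submitters' processing notes; the sources used here give no RMA version. The table held 34760 probe sets, of which the platform annotation pairs 21640 with 1 gene, 1321 with several and 11799 with none in the table used. Entrez identifiers were matched to RefSeq's gene table for 21553 of the single-gene probe sets, which changed 0 symbols. The table held 0 columns of other samples.

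Differences are Sirt1 inactive minus control, fitted with limma 3.58.1 in R 4.3.3 over all 6 arrays and 22961 probe sets with at least 1 gene, with empirical Bayes moderation, two-sided p-values and Benjamini-Hochberg adjustment at a threshold of 0.05. A standard error (SE) is limma's; the median SE was 0.0802. The number of arrays limits the precision. P-values set the difference of the groups against the spread between these cultures, moderated over probe sets. Without the replicate block they take no account of same-numbered cultures varying together. Values are mean or per array, n = 3 per group. Arrays have no read depth.

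Same-numbered cultures of the 2 groups deviated together over all tested probe sets, with correlations of 0.47, 0.36 and 0.27. Other pairings had correlations of -0.32 to -0.02. Deviations were taken from the mean of their own group and cancel out within it, so positive values for some pairings push the others down. The replicate number was therefore also fitted as a block, as an alternative. The other alternatives were 2 scalings, a filter on dim probe sets, another variance prior, array weights, other sets of probe sets and each array left out in turn. The fit was tested on simulated data with independent noise, without the correlation of same-numbered cultures. It recovered 48.8% of changes of 0.5 log2 units and 89.4% of changes of 1, with 5.18% false calls among calls. Changes of 0.5, 1 and 2 log2 units were planted together in a small share of the probe sets. Recovery depends on how many probe sets change and by how much, so these rates need not hold for the real data. Changes as small as the differences of the 9 targets were not simulated.

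The p53 targets and the gene lists were chosen with earlier results of these data known. Besides the targets, Sirt1, Mdm4 and Bbc3, the rule names up to 4 genes per list with the smallest unadjusted p and all paralogs. Chac1, Vldlr, Pltp, Atf3 and single markers of other cell types were named after their values were seen.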

Additional observations from a re-analysis of the deposited data

How the results depend on the processing

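None of the 9 measured p53 targets and none of the 102 other measured pathway genes passed under any of 14 other settings, and no probe set passed under the 13 of them that were counted over probe sets (limma). In a further fit chosen after seeing the data, with the replicate block and without both arrays of number 3, 19 of all probe sets passed and 0 of the 9 targets did. Sirt1 stayed between -0.36 and -0.47 with each array left out. The differences of Plk2, Sesn1, Sesn2 and Trp53inp1 were below 0 under every alternative run, and leaving out 1 array gave -0.50 to -0.12, -0.20 to -0.09, -0.31 to -0.04 and -0.17 to -0.11. Sesn1 was -0.089 without Sirt1 inactive replicate 1 and -0.092 without control replicate 1. Plk2 had an unadjusted p of 0.031 without control replicate 1 (-0.50), and Trp53inp1 of 0.047 without control replicate 2, 0.048 with renewed quantile normalization and 0.036 with the other variance prior (limma). The signs of the others were not fixed. Leaving out 1 array gave -0.063 to 0.078 for Mdm2, -0.030 to 0.060 for Ccng1, -0.11 to 0.20 for Gadd45a, -0.13 to 0.025 for Pmaip1 and -0.013 to 0.066 for Phlda3. With array weights Mdm2 was -0.023, Ccng1 -0.0036 and Gadd45a -0.034. In the further fit Mdm2 was -0.026, Ccng1 -0.0095, Gadd45a -0.018 and Phlda3 -0.0052. Control replicate 3, where all of these genes were lowest, had the lowest array weight, 0.395, and was not in the further fit. Why these genes were lowest on that array was not tested. The replicate block changed no call, and the median of the 9 differences was -0.06 with it as without. Over all alternatives that kept the 9 targets this median lay between -0.09 and -0.03. The share of all probe sets below 0 was 48.9% when array medians were subtracted, while 5 of the 9 targets stayed below 0. The filter on brightness removed Pmaip1, so no median was taken there. With that filter, 51.4% of probe sets and 4 of the 8 targets left were below 0.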
